A study of Homo sapiens with 18 samples.

Results

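Fibroblast growth factor (FGF) signalling was described here through 10 genes, FGF2, FGF8, FGF9, FGF19, FGF13, FGFR1, FGFR2, FGFR3, FGFR4 and FLRT3, out of 18417 genes that the arrays name singly. The members were taken by symbol, and each had 1 probe set whose annotation names that gene alone, so no choice between probe sets was needed. The samples came from H1, a line of human embryonic stem cells (hESC), measured on 18 Affymetrix Human Gene 1.0 ST arrays. Embryoid bodies, which are aggregates left to differentiate, were grown for 6 days in APEL medium after formation in AggreWell plates. Pluripotent cells were grown without feeders on Matrigel in mTeSR1 medium. In each state 3 arrays came from cells infected with a lentivirus for an shRNA against KBTBD8, 3 from cells infected with a lentivirus for a control shRNA, and 3 from cells with no infection. KBTBD8 picks the targets of a CUL3-based ubiquitin ligase. All groups share the 1 cell line, and no gene of the FGF family was targeted in any of them. The 3 arrays of a group are called independent samples by the study, without a statement that they were separate cultures, so p-values measure the spread between these samples. Levels are log2 intensities, and a level of 1 probe set is not set against that of another.

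FGF ligands are secreted proteins that bind tyrosine kinase receptors together with heparan sulfate chains on the cell surface. Bound receptors recruit adaptors that switch on the RAS-ERK kinase cascade, and the cascade induces its own inhibitors of the Sprouty and DUSP families. In human pluripotent cells FGF2 sustains self-renewal, and in the early embryo FGF signals help to set neural, crest and mesodermal fates. FGF13 stands apart from the secreted ligands: it is an FGF homologous factor that stays inside the cell and binds voltage-gated sodium channels. FLRT3 is neither ligand nor receptor kinase but a membrane protein with leucine-rich repeats, which was found to bind FGF receptors and to enhance their signal in Xenopus.

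Both arrays numbered 2 of the KBTBD8 shRNA lay with the other state and were read apart from their groups. Across 14142 genes, the array labelled pluripotent correlated at 0.990 with the KBTBD8 shRNA embryoid bodies and at 0.908 with its own group. The array labelled embryoid body correlated at 0.993 with the pluripotent KBTBD8 shRNA cells and at 0.914 with its own group. On each of these arrays 9 of the 10 members lay nearer to the KBTBD8 shRNA mean of the other state, and the exception on both was FGFR2, whose KBTBD8 shRNA means differed little between states. FLRT3 read 5.32 on the array labelled embryoid body and 8.98 on the array labelled pluripotent, against 9.12 and 9.11 in the other embryoid bodies and 5.41 and 5.42 in the other pluripotent cells of that treatment. The results below therefore rest on 16 arrays, with 2 in each KBTBD8 shRNA group, and values for all 18 arrays under their labels are added for the comparisons that use the KBTBD8 shRNA groups, here or in the closing section. KBTBD8 itself read 5.13 and 4.96 in pluripotent cells with its shRNA, against 6.39, 7.09 and 7.03 with the control shRNA, so it fell by 1.79 ± 0.26 (limma, adjusted p 2.8e-04). In embryoid bodies it read 4.86 and 4.66 with its shRNA, against 4.43, 4.79 and 5.04 with the control shRNA, all below the 40th percentile of the array, and no lower level was seen there (0.01 ± 0.26, adjusted p 0.998). Of 10 markers of pluripotent cells, 7 fell in embryoid bodies in each of the 3 treatments. In KBTBD8 shRNA cells 2 of them rose, and 1 rose in each of the other treatments. Among all genes 21.1% fell with the KBTBD8 shRNA, 25.3% with the control shRNA and 26.3% untransduced.

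**Figure D1:**
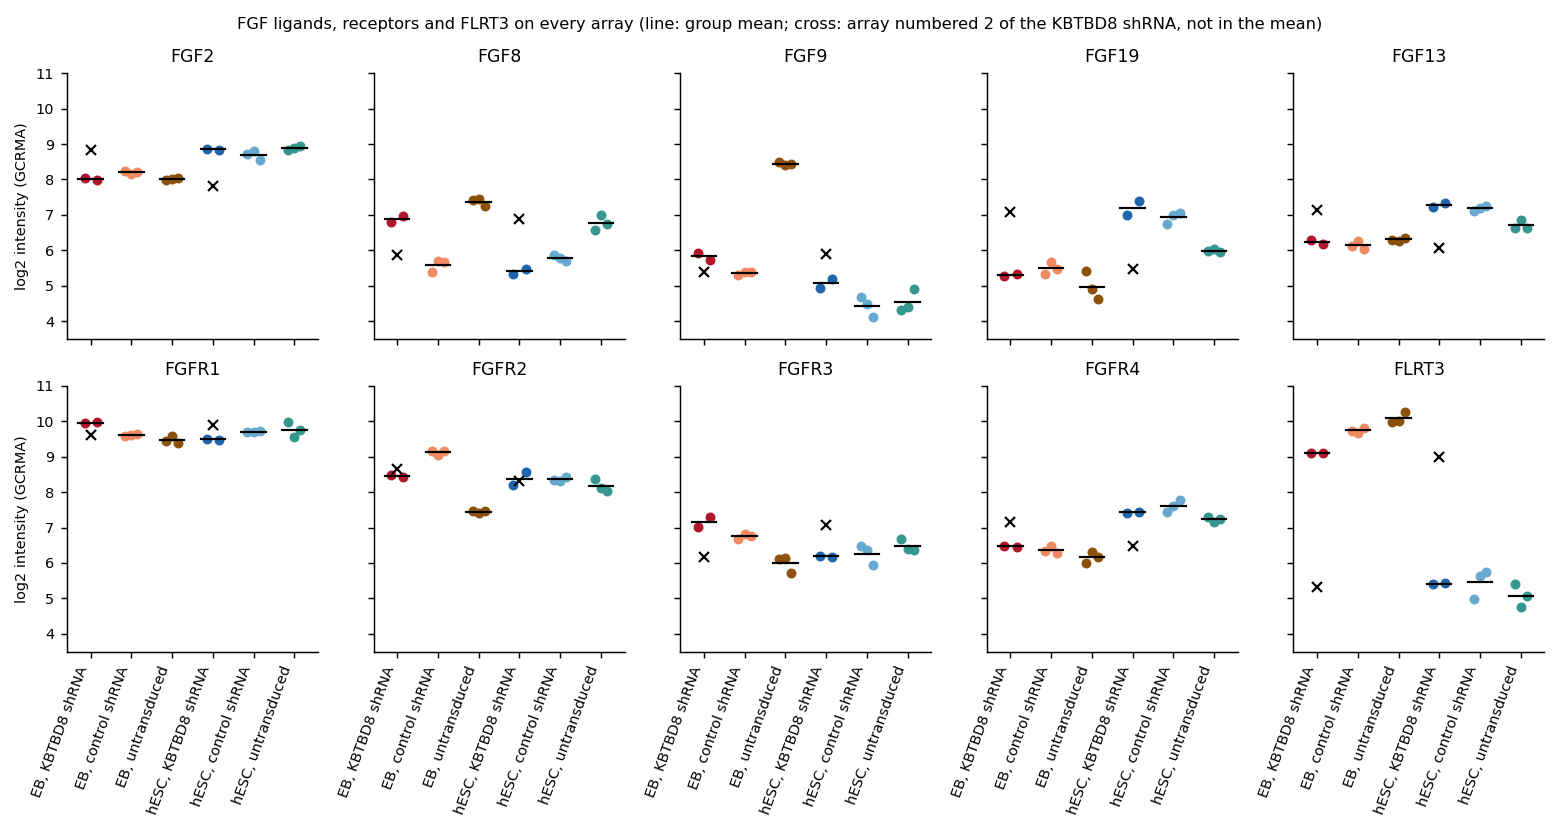
Log2 intensity (vertical axis) of the 10 members on each of the 18 arrays, by group along the horizontal axis, with embryoid bodies (EB) left of pluripotent cells (hESC). Points are arrays, lines are group means over 2 arrays for the KBTBD8 shRNA and 3 otherwise, and crosses are the arrays numbered 2 of the KBTBD8 shRNA. FLRT3 lies between 9.11 and 10.27 in embryoid bodies and between 4.75 and 5.76 in pluripotent cells, and the crosses lie with the other state.

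Sequences just upstream of annotated gene starts are shown for 4 members that stand for the patterns described further on. FLRT3 was higher in embryoid bodies in every treatment, FGFR4 and FGF13 were lower in every treatment, and FGFR2 moved in a direction that depended on the treatment. The RefSeq promoter table for GRCh38.p14 held 6 of the 10 members. Each sequence reads 5′ to 3′ on the gene's strand and ends at the base before the annotated start. Capitals mark matches on either strand to the GC box GGGCGG, the TATA box TATAAA, the SOX core CATTGT, the octamer ATGCAAAT and the CCAAT box CCAAT.
FLRT3, minus strand, chr20:14337613-14337862: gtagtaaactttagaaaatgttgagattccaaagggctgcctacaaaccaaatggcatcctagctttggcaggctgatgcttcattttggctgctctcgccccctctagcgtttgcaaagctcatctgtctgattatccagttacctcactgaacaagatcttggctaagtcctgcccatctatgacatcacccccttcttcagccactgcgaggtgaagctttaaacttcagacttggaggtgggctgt
FGFR2, minus strand, chr10:121598459-121598694: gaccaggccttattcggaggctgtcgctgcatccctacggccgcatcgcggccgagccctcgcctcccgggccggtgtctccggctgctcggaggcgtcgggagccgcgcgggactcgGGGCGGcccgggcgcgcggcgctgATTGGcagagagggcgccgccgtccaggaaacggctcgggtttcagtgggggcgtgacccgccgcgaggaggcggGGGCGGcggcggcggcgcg
FGFR4, plus strand, chr5:177086665-177086914: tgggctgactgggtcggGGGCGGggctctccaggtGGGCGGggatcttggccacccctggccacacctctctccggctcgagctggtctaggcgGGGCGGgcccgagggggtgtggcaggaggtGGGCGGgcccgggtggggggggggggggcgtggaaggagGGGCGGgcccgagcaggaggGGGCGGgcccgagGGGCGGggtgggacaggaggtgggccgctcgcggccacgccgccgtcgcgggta
FGF13, minus strand, chrX:139205024-139205273: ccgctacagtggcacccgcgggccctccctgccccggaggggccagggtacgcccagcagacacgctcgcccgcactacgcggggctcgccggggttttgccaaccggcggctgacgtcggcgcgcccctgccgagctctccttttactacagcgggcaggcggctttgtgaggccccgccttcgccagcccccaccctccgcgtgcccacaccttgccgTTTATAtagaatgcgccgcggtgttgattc

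The FLRT3 window held none of these 5 motifs and had a GC content of 47.6%, against a median of 58.0% over 35116 upstream windows of 250 bases. The FGFR4 window held 7 GC boxes at a GC content of 79.6%. In the FGFR2 window, which spans 236 bases, there were 2 GC boxes and 1 CCAAT box on the opposite strand. In the FGF13 window 1 TATA box lay on the opposite strand. Of all upstream windows 42.6% held a GC box, 32.0% a CCAAT box, 10.7% a TATA box, 9.29% the SOX core and 1.63% the octamer. The arrays measure a gene as a whole and say nothing of which start was used, so the matches are a description of these letters alone.

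Embryoid bodies were compared with pluripotent cells within each treatment, a comparison called differentiation here. The states also differ in medium and form of culture, so 6 days of differentiation cannot be told apart from the culture conditions. FGF2, FGF19, FGF13 and FGFR4 fell in all 3 treatments, and FGF9 and FLRT3 rose in all 3. FGF8, FGFR1, FGFR2 and FGFR3 differed in direction or in call between treatments. In KBTBD8 shRNA cells 5 members rose, 4 fell and 1 did not pass, where 17.4% of all genes tested rose, 21.1% fell and 38.5% changed in either direction. In control shRNA cells 4 rose, 4 fell and 2 did not pass, against 23.2%, 25.3% and 48.4% of all genes. In untransduced cells 3 rose and 7 fell, against 26%, 26.3% and 52.3% of all genes. A change means an adjusted p under 0.05 in limma over 14142 genes. The median size of the difference over the 10 members, without its sign, was 0.97, 0.85 and 0.80 in these treatments, where all genes tested had 0.25, 0.25 and 0.28. With all 18 arrays under their labels limma called 5 members untransduced (38.6% of all genes) and 6 with the control shRNA (33.9%). In KBTBD8 shRNA cells it then called no gene, member or other (0%), and 763 genes had an unadjusted p under 0.05. Its differences there were 1.25 for FLRT3, 0.65 for FGF8, 0.35 for FGFR3, 0.34 for FGF9, 0.22 for FGFR1, 0.16 for FGFR2, -0.22 for FGF2, -0.34 for FGF13, -0.41 for FGFR4 and -0.73 for FGF19, with adjusted p from 0.79 to 0.85. RNA was taken from whole cultures, so fewer cells of a type and less RNA per cell cannot be told apart.

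**Figure D2:**
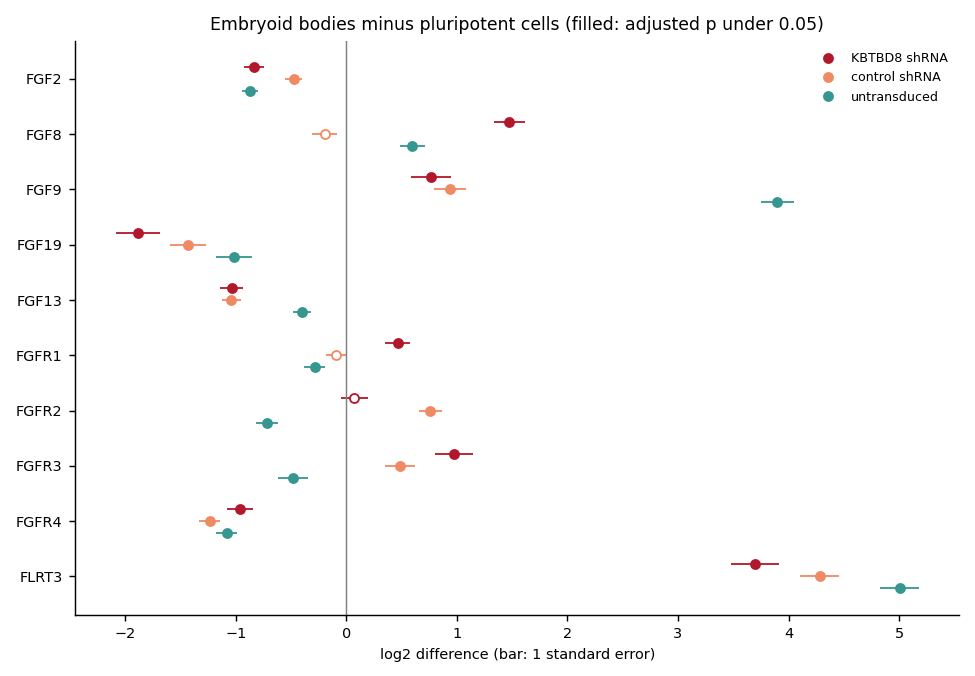
Log2 difference of embryoid bodies minus pluripotent cells (horizontal axis) for each member (vertical axis) in KBTBD8 shRNA, control shRNA and untransduced cells, on 16 arrays. Bars are 1 standard error, and filled points have an adjusted p under 0.05. FLRT3 rises by 3.70 to 5.01 in all treatments, FGF9 by 3.90 in untransduced cells and by under 1 in the others, and FGFR2 and FGFR3 lie on opposite sides of 0 in control shRNA and untransduced cells.

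FGF2, the ligand that is added to media for pluripotent human cells, had its lower level in embryoid bodies. It read 8.04 and 7.99 in embryoid bodies with the KBTBD8 shRNA, 8.24, 8.17 and 8.22 with the control shRNA and 7.98, 8.01 and 8.05 untransduced. In pluripotent cells it read 8.87 and 8.83 with the KBTBD8 shRNA, 8.71, 8.81 and 8.55 with the control shRNA and 8.84, 8.89 and 8.93 untransduced. Every embryoid body array lay under every pluripotent array. FGF2 fell by 0.84 ± 0.092 (SE, adjusted p 2.5e-06) in KBTBD8 shRNA cells, by 0.48 ± 0.075 (adjusted p 6.4e-05) in control shRNA cells and by 0.87 ± 0.075 (adjusted p 7.9e-08) in untransduced cells. In order of level, untransduced and KBTBD8 shRNA pluripotent cells overlapped at the top, and KBTBD8 shRNA and untransduced embryoid bodies overlapped at the bottom. FGF2 was bright on every one of the 16 arrays, between the 78.8 and the 88.2 percentile of each.

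FGF8, a ligand of the organizing centres of the forebrain and midbrain, differed between treatments in both states. In embryoid bodies it read 6.80 and 6.97 with the KBTBD8 shRNA, 5.39, 5.69 and 5.67 with the control shRNA and 7.43, 7.45 and 7.24 untransduced. Its pluripotent values were 5.34 and 5.48 with the KBTBD8 shRNA, 5.87, 5.79 and 5.68 with the control shRNA and 6.58, 6.999 and 6.75 untransduced. Both control shRNA groups and the pluripotent KBTBD8 shRNA cells formed a low set from 5.34 to 5.87, and the other groups lay from 6.58 to 7.45 with no overlap. FGF8 rose by 1.47 ± 0.14 in KBTBD8 shRNA embryoid bodies relative to pluripotent cells (adjusted p 4.8e-07) and by 0.60 ± 0.11 in untransduced ones (adjusted p 3.5e-04). In control shRNA cells the difference was -0.20 ± 0.11 and did not pass (adjusted p 0.17). In the low set the probe set reached the 37.9 to 46.1 percentile of the array, near the 40th percentile used as a filter.

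FGF9, which signals from epithelium to mesenchyme in several organs of the mouse embryo, was high in a single group. It read 8.49, 8.40 and 8.42 in untransduced embryoid bodies. In embryoid bodies with the KBTBD8 shRNA it read 5.93 and 5.74, and with the control shRNA 5.29, 5.38 and 5.40. Pluripotent cells gave 4.94 and 5.19 with the KBTBD8 shRNA, 4.68, 4.48 and 4.11 with the control shRNA and 4.30, 4.41 and 4.90 untransduced. Untransduced embryoid bodies lay at the 83rd to 84th percentile of the array, while all pluripotent arrays lay under the 37th, so the log2 differences are taken from levels below the filter and no fold is given. FGF9 rose by 0.77 ± 0.18 (adjusted p 0.0032) in KBTBD8 shRNA cells, by 0.94 ± 0.15 (adjusted p 6.8e-05) in control shRNA cells and by 3.90 ± 0.15 (adjusted p 3.9e-12) in untransduced cells. On the control shRNA embryoid body arrays it reached at most the 38.8 percentile. Both control shRNA groups thus lay below the filter. The rise between them is counted, and it enters the interaction terms further on.

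FGF19, a hormone that in the liver acts through FGFR4 and the coreceptor KLB, fell in embryoid bodies of every treatment. In embryoid bodies it read 5.27 and 5.34 with the KBTBD8 shRNA, 5.33, 5.68 and 5.48 with the control shRNA and 5.42, 4.90 and 4.61 untransduced. In pluripotent cells the values were 6.99 and 7.39 with the KBTBD8 shRNA, 6.74, 6.999 and 7.04 with the control shRNA and 5.98, 6.05 and 5.94 untransduced. The states did not overlap, and infected pluripotent cells lay above uninfected ones. It fell by 1.89 ± 0.20 (adjusted p 1.7e-06) with the KBTBD8 shRNA, by 1.43 ± 0.16 (adjusted p 2.3e-06) with the control shRNA and by 1.01 ± 0.16 (adjusted p 7.1e-05) untransduced. The embryoid body values lay between the 29.0 and 43.1 percentile of the array. KLB did not pass the filter on dim genes.

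FGF13 followed the same order of states as FGF19. Its embryoid body values were 6.30 and 6.18 with the KBTBD8 shRNA, 6.13, 6.26 and 6.05 with the control shRNA and 6.30, 6.27 and 6.35 untransduced. Pluripotent cells gave 7.23 and 7.33 with the KBTBD8 shRNA, 7.12, 7.19 and 7.25 with the control shRNA and 6.64, 6.85 and 6.64 untransduced. All embryoid body groups overlapped with a neighbour, and the infected pluripotent groups overlapped with each other above the uninfected one. FGF13 fell by 1.04 ± 0.10 with the KBTBD8 shRNA (adjusted p 8.8e-07), by 1.04 ± 0.085 with the control shRNA (adjusted p 5.0e-08) and by 0.40 ± 0.085 in untransduced cells (adjusted p 8.0e-04).

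FGFR1, the main FGF receptor of the early mouse epiblast, varied least among the members, with group means that spanned 0.48. It read 9.95 and 9.97 in embryoid bodies with the KBTBD8 shRNA, 9.59, 9.61 and 9.65 with the control shRNA and 9.44, 9.59 and 9.40 untransduced. In pluripotent cells it read 9.50 and 9.49 with the KBTBD8 shRNA, 9.70, 9.70 and 9.73 with the control shRNA and 9.99, 9.56 and 9.74 untransduced. FGFR1 rose by 0.46 ± 0.11 in KBTBD8 shRNA embryoid bodies (adjusted p 0.0041). In control shRNA cells the difference was -0.10 ± 0.093 (adjusted p 0.43). In untransduced cells it fell by 0.29 ± 0.093 (adjusted p 0.016), although the ranges overlapped. Without pluripotent replicate 1 that difference was -0.18 and did not pass (adjusted p 0.086), and without embryoid body replicate 3 it was -0.25 (adjusted p 0.066). Centred arrays gave -0.25 (adjusted p 0.060), and a fit on these groups alone gave an adjusted p of 0.077.

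FGFR2, which exists in an epithelial and a mesenchymal splice form that this probe set does not separate, moved in opposite directions in control shRNA and untransduced cells. In embryoid bodies it read 8.47 and 8.43 with the KBTBD8 shRNA, 9.15, 9.05 and 9.16 with the control shRNA and 7.47, 7.42 and 7.45 untransduced. Pluripotent cells gave 8.20 and 8.56, then 8.33, 8.32 and 8.44, then 8.38, 8.10 and 8.02, in the same order of treatments. The 3 pluripotent groups and the KBTBD8 shRNA embryoid bodies overlapped in the middle of the range. Relative to pluripotent cells FGFR2 rose by 0.76 ± 0.10 in control shRNA embryoid bodies (adjusted p 1.3e-05) and fell by 0.72 ± 0.10 in untransduced ones (adjusted p 1.9e-05). In KBTBD8 shRNA cells the difference of 0.07 ± 0.12 did not pass (adjusted p 0.69).

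FGFR3, a receptor of cartilage and of neural progenitors, rose in both infected series and fell in the uninfected one. Embryoid bodies gave 7.03 and 7.29 with the KBTBD8 shRNA, 6.68, 6.81 and 6.76 with the control shRNA and 6.12, 6.14 and 5.73 untransduced. Pluripotent cells gave 6.20 and 6.17 with the KBTBD8 shRNA, 6.49, 6.36 and 5.94 with the control shRNA and 6.66, 6.39 and 6.38 untransduced. The 3 embryoid body groups did not overlap with each other. FGFR3 rose by 0.98 ± 0.17 with the KBTBD8 shRNA (adjusted p 2.7e-04) and by 0.48 ± 0.14 with the control shRNA (adjusted p 0.0086), and fell by 0.48 ± 0.14 in untransduced cells (adjusted p 0.0082). The control shRNA rise was 0.32 without pluripotent replicate 3 (adjusted p 0.057), and the untransduced difference was -0.35 without embryoid body replicate 3 (adjusted p 0.055).

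FGFR4, the receptor through which FGF19 acts on hepatocytes, fell by a like amount in every treatment. It read 6.49 and 6.46 in embryoid bodies with the KBTBD8 shRNA, 6.35, 6.48 and 6.29 with the control shRNA and 6.01, 6.30 and 6.16 untransduced. In pluripotent cells it read 7.42 and 7.45 with the KBTBD8 shRNA, 7.44, 7.61 and 7.77 with the control shRNA and 7.30, 7.17 and 7.25 untransduced. No embryoid body array reached the lowest pluripotent one. FGFR4 fell by 0.96 ± 0.12 (adjusted p 8.0e-06) with the KBTBD8 shRNA. It fell by 1.23 ± 0.096 (adjusted p 3.1e-08) with the control shRNA and by 1.08 ± 0.096 (adjusted p 1.1e-07) untransduced.

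FLRT3 separated the states more widely than any other member. In embryoid bodies it read 9.12 and 9.11 with the KBTBD8 shRNA, 9.74, 9.66 and 9.82 with the control shRNA and 9.97, 9.9998 and 10.27 untransduced, and these 3 groups did not overlap. In pluripotent cells it read 5.41 and 5.42 with the KBTBD8 shRNA, 4.98, 5.64 and 5.76 with the control shRNA and 5.41, 4.75 and 5.07 untransduced. Here the infected groups overlapped with each other, and the control shRNA and untransduced ranges did too. The rises were 3.70 ± 0.22 (adjusted p 2.0e-09) with the KBTBD8 shRNA, 4.28 ± 0.18 (adjusted p 2.0e-11) with the control shRNA and 5.01 ± 0.18 (adjusted p 1.8e-12) untransduced. The pluripotent values lay between the 29.8 and 46.4 percentile of the array, around the level of the filter, so no fold is given here either.

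The KBTBD8 shRNA was compared with the control shRNA to ask which genes differ between the shRNAs. In embryoid bodies FGF8 was higher and FGFR2 was 1.59-fold lower, although KBTBD8 itself did not differ detectably in that state. FGF8 lay at the 38.5 to 43.5 percentile with the control shRNA, near the filter, so no fold is given. In pluripotent cells FGF9 alone among the members passed, at levels where all 5 arrays lay below the filter on dim genes. In embryoid bodies 1 member was higher, 1 was lower and 8 did not pass, where 5.81% of all genes changed (2.84% higher, 2.97% lower). In pluripotent cells 1 was higher and 9 did not pass, where 14.1% of all genes changed (8.46% higher, 5.68% lower).

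FGF8 in embryoid bodies read 6.80 and 6.97 with the KBTBD8 shRNA, against 5.39, 5.69 and 5.67 with the control shRNA. The difference was 1.30 ± 0.13 (adjusted p 5.6e-06), and on all 18 arrays it was 0.97 ± 0.32 (adjusted p 0.17). FGFR2 in embryoid bodies read 8.47 and 8.43, against 9.15, 9.05 and 9.16 with the control shRNA. It fell by 0.67 ± 0.11 (adjusted p 0.0014), and on 18 arrays by 0.61 ± 0.11 (adjusted p 0.0052). For FLRT3 (-0.63 ± 0.20, adjusted p 0.084) and FGFR1 (0.34 ± 0.10, adjusted p 0.070) the embryoid body ranges did not overlap, and neither passed. The same held for FGF9 (0.47 ± 0.17, adjusted p 0.13), FGFR3 (0.41 ± 0.16, adjusted p 0.17) and FGF2 (-0.20 ± 0.084, adjusted p 0.24). A fit on the arrays of those groups alone called FGF9, FGFR1 and FLRT3 (adjusted p 0.024, 0.046 and 0.0049). FGFR1 also passed with quantile normalization (adjusted p 0.047), with a filter at the 60th percentile (adjusted p 0.048) and without pluripotent untransduced replicate 1 or 2 (adjusted p 0.019 and 0.030), and FLRT3 without replicate 1 of the pluripotent control shRNA or untransduced cells (adjusted p 0.018 and 0.047). FGF13 (0.10), FGF19 (-0.20) and FGFR4 (0.10) had overlapping ranges. On 18 arrays none of these 8 passed, with -1.89 for FLRT3, 0.23 for FGFR1, 0.32 for FGF9, 0.08 for FGFR3, 0.076 for FGF2, 0.40 for FGF13, 0.39 for FGF19 and 0.33 for FGFR4. In pluripotent cells FGF9 read 4.94 and 5.19 with the KBTBD8 shRNA, against 4.68, 4.48 and 4.11 with the control shRNA, a difference of 0.65 ± 0.17 (adjusted p 0.017). These arrays lay between the 19.6 and 36.7 percentile, and FGF9 passed the filter only through embryoid bodies. For that reason no fold is given, and the call only enters the counts of members called. The same arrays also enter the interaction term of the KBTBD8 against the control shRNA further on. On 18 arrays it was 0.92 (adjusted p 0.025), and it did not pass without control shRNA replicate 3 (0.49, adjusted p 0.063), without KBTBD8 shRNA replicate 3 (0.52, adjusted p 0.18) or in a fit on the arrays of those groups alone (adjusted p 0.055). On 18 arrays 1 member passed in each state, with 2.48% of all genes in embryoid bodies and 5.13% in pluripotent cells. The other pluripotent differences on 16 arrays lay between -0.37 (FGF8, adjusted p 0.067) and 0.26 (FGF19, adjusted p 0.38), and FGF8 passed with the filter at the 60th percentile (adjusted p 0.046) and without untransduced replicate 1 or 2 (adjusted p 0.044 and 0.040). On 18 arrays the pluripotent differences were -0.49 for FGFR4 (adjusted p 0.25) and -0.08 for FGFR1 (adjusted p 0.80), and the remaining ones are in the closing section.

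Markers of several cell types also differed between the embryoid body groups. The mean level of 8 forebrain and neural plate markers was 8.31 to 8.41 with the KBTBD8 shRNA, 7.56 to 7.64 with the control shRNA and 8.70 to 8.85 untransduced. Of these 8, 4 were higher and 1 was lower with the KBTBD8 than with the control shRNA. The mean of 9 neural crest markers was 7.22 to 7.36 with the KBTBD8 shRNA, 9.05 to 9.15 with the control shRNA and 6.22 to 6.36 untransduced, and 8 of the 9 were lower with the KBTBD8 than with the control shRNA. The mean of 6 epithelial markers was 9.97 to 10.15, 9.43 to 9.49 and 7.56 to 8.06 in the same groups, and 5 of the 6 were higher with the KBTBD8 than with the control shRNA. The 10 pluripotency markers averaged 9.28 to 9.41, 9.08 to 9.12 and 8.24 to 8.34, with 3 higher. Endoderm markers had 3 of 7 lower, neuron markers 3 of 4 lower and mesoderm markers none of 5 changed. Between these shRNAs 2.84% of all genes were higher and 2.97% lower. In the control shRNA against untransduced embryoid bodies, 7 of 8 forebrain markers were lower, and 7 of 9 crest and all 6 epithelial markers were higher. Of 10 pluripotency markers 7 were higher and 1 was lower. Mesoderm markers had 4 of 5 higher, endoderm markers 4 of 7 and neuron markers 2 of 4. Among all genes 24.5% were higher and 20.3% lower in that comparison. The part of these cell types in the levels of the FGF genes was not tested.

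**Figure D3:**
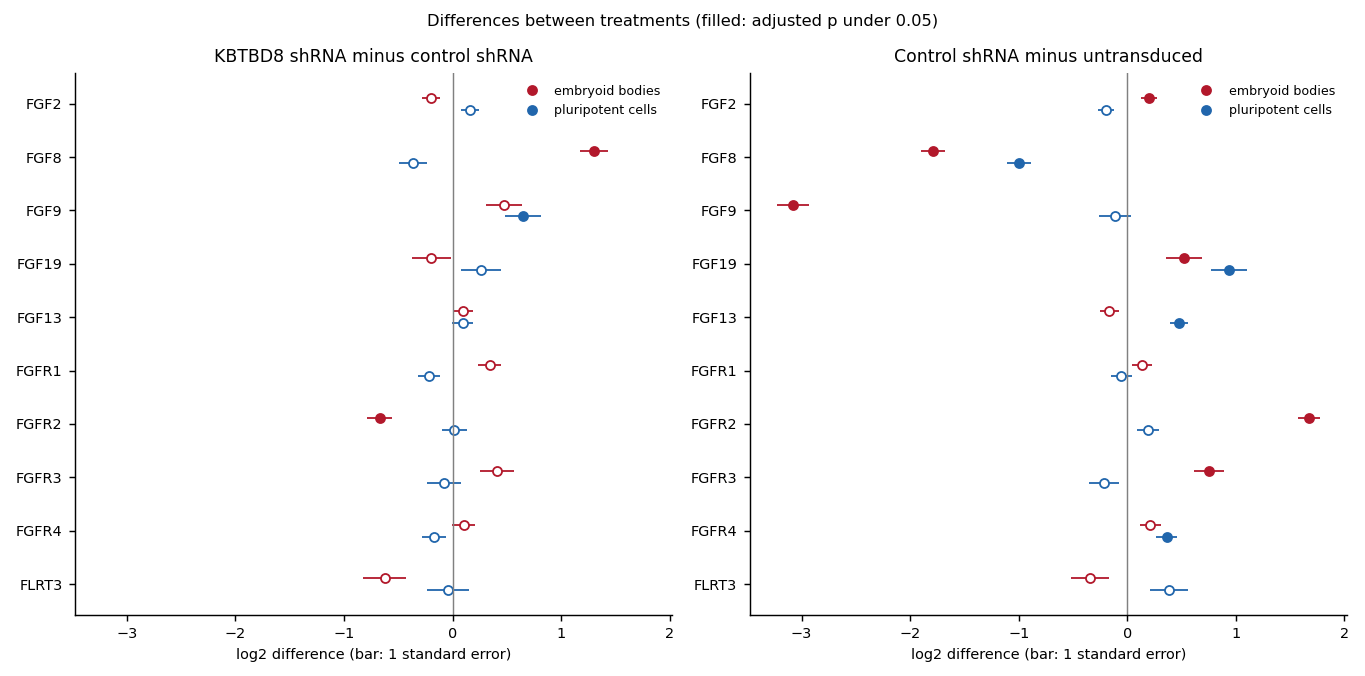
Log2 differences (horizontal axis) for each member (vertical axis) between the KBTBD8 and the control shRNA on the left and between the control shRNA and untransduced cells on the right, in embryoid bodies and in pluripotent cells, on 16 arrays. Bars are 1 standard error, and filled points have an adjusted p under 0.05. The widest differences are in embryoid bodies of the right panel, with FGF9 at -3.08, FGF8 at -1.79 and FGFR2 at 1.67.

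The control shRNA was compared with untransduced cells to measure the difference that goes with infection and a shRNA without that target. In embryoid bodies FGF9 and FGF8 were lower with the control shRNA and FGFR2, FGFR3, FGF19 and FGF2 were higher. In pluripotent cells FGF8 was lower and FGF19, FGF13 and FGFR4 were higher. In embryoid bodies 4 members were higher, 2 were lower and 4 did not pass, where 44.9% of all genes changed (24.5% higher, 20.3% lower). In pluripotent cells 3 were higher, 1 was lower and 6 did not pass, where 29.1% of all genes changed (16.9% higher, 12.1% lower). On all 18 arrays 4 members passed in embryoid bodies (27.1% of all genes) and none in pluripotent cells (12.1% of all genes). These comparisons share the control shRNA arrays with those of the KBTBD8 shRNA. The median level over all probe sets was 5.97 to 6.12 on the 12 infected arrays and 5.85 to 5.95 on the 6 untransduced arrays, and the labels do not say whether both sets were normalized together. Infection therefore cannot be told apart here from any other difference between these sets of arrays.

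In control shRNA embryoid bodies FGF9 fell by 3.08 ± 0.15 (adjusted p 3.2e-10), with 5.29, 5.38 and 5.40, all below the filter, against 8.49, 8.40 and 8.42 untransduced. FGF8 fell by 1.79 ± 0.11 (adjusted p 6.7e-09), with a highest value of 5.69, near the filter, against a lowest value of 7.24 untransduced. FGFR2 rose by 1.67 ± 0.10 (3.19-fold, adjusted p 4.0e-09), with a lowest value of 9.05 against a highest value of 7.47 untransduced. FGFR3 rose by 0.75 ± 0.14 (adjusted p 4.6e-04), also without overlap. The rise of FGF19 by 0.52 ± 0.16 (adjusted p 0.016) came with overlapping ranges, and it did not pass after quantile normalization was repeated (0.35, adjusted p 0.087), after each array was centred on its median (0.35, adjusted p 0.086), or without embryoid body replicate 3 of the untransduced cells (0.34, adjusted p 0.10), replicate 2 of them (0.48, adjusted p 0.051) or control shRNA replicate 2 (0.43, adjusted p 0.076). FGF2 rose by 0.20 ± 0.075 (adjusted p 0.043), a call that was lost with the arrays centred (0.02, adjusted p 0.84), with a replicate block (adjusted p 0.054), with no filter (adjusted p 0.057) and without any single array of these groups or of the pluripotent KBTBD8 shRNA (adjusted p 0.051 to 0.11). FGF13 (-0.16), FLRT3 (-0.34), FGFR4 (0.21) and FGFR1 (0.14) did not pass. FGF13 did pass with quantile normalization (-0.32, adjusted p 0.0051) and with the arrays centred (-0.34, adjusted p 0.0081), and FLRT3 with the arrays centred (-0.51, adjusted p 0.032), in a fit on these groups alone (adjusted p 0.017) and without pluripotent control shRNA replicate 1 (adjusted p 0.046). FGFR4 passed without embryoid body replicate 2 of the untransduced cells (adjusted p 0.038).

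In pluripotent cells FGF8 fell by 1.00 ± 0.11 with the control shRNA (adjusted p 3.7e-05), with 5.87, 5.79 and 5.68 against 6.58, 6.999 and 6.75 untransduced. FGF19 rose by 0.94 ± 0.16 (adjusted p 7.6e-04), with 6.74, 6.999 and 7.04 against 5.98, 6.05 and 5.94. FGF13 rose by 0.48 ± 0.085 (adjusted p 8.9e-04), with 7.12, 7.19 and 7.25 against 6.64, 6.85 and 6.64. None of these 3 ranges overlapped. FGFR4 rose by 0.37 ± 0.096 (adjusted p 0.010), which did not pass with the arrays centred (0.26, adjusted p 0.094) or without control shRNA replicate 3 (0.28, adjusted p 0.055). FLRT3 (0.38, adjusted p 0.11), FGFR2 (0.19), FGFR3 (-0.22), FGF2 (-0.20, adjusted p 0.059), FGF9 (-0.12) and FGFR1 (-0.05) did not pass. FGF2 did pass with the arrays centred (-0.30, adjusted p 0.016), with a filter at the 60th percentile (adjusted p 0.042) and without control shRNA replicate 2 (-0.26, adjusted p 0.036). FLRT3 passed without control shRNA replicate 1 (0.62, adjusted p 0.0079) or untransduced replicate 1 (0.55, adjusted p 0.031), and FGFR2 without untransduced replicate 1 (adjusted p 0.033).

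Whether the difference between states differed between treatments was tested with interaction terms. Between control shRNA and untransduced cells 6 members passed, 3 in each direction, where 16.9% of all genes did (8.24% higher, 8.66% lower). The change with differentiation was more positive with the control shRNA for FGFR2 (1.48 ± 0.14, adjusted p 2.5e-06), FGFR3 (0.97 ± 0.20, adjusted p 0.0027) and FGF2 (0.40 ± 0.11, adjusted p 0.017). It was more negative for FGF9 (-2.96 ± 0.21, adjusted p 8.4e-08), FGF8 (-0.79 ± 0.16, adjusted p 0.0026) and FGF13 (-0.64 ± 0.12, adjusted p 0.0014). FGF9 lay below the filter in every group of this term except untransduced embryoid bodies, and it passed the filter only through embryoid bodies. The FGF2 term was lost with the arrays centred (0.33, adjusted p 0.083) and without pluripotent control shRNA replicate 3 (0.33, adjusted p 0.053). On all 18 arrays 2 members passed, with 5.24% of all genes. FLRT3 (-0.72, adjusted p 0.059), FGF19 (-0.41), FGFR1 (0.19) and FGFR4 (-0.15) did not pass. The FLRT3 term passed with the filter at the 60th percentile (adjusted p 0.044) and without replicate 1 of the pluripotent control shRNA or untransduced cells (adjusted p 0.0036 and 0.016).

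Between the KBTBD8 and the control shRNA 3 members passed, 2 more positive and 1 more negative, where 9.88% of all genes did (3.74% higher, 6.14% lower). FGF8 differed by 1.67 ± 0.18 (adjusted p 2.7e-05), FGFR1 by 0.56 ± 0.15 (adjusted p 0.025) and FGFR2 by -0.69 ± 0.16 (adjusted p 0.013). On all 18 arrays these terms were 0.85 (adjusted p 0.32), 0.31 (adjusted p 0.36) and -0.60 (adjusted p 0.042), where 3.67% of all genes passed. The FGFR1 term did not pass with the arrays centred (adjusted p 0.062) or without 1 of 5 arrays, namely pluripotent or embryoid body KBTBD8 shRNA replicate 1 or 3 or embryoid body control shRNA replicate 1 (adjusted p 0.055 to 0.083). The FGFR2 term did not pass without pluripotent KBTBD8 shRNA replicate 3 (-0.51, adjusted p 0.089). The other terms were FGFR3 0.49 (adjusted p 0.19), FGFR4 0.27, FGF13 0.00, FGF9 -0.17, FGF2 -0.36 (adjusted p 0.069), FGF19 -0.46 and FLRT3 -0.58. On all 18 arrays none of these passed, with -3.04 for FLRT3, 0.82 for FGFR4, 0.70 for FGF13 and -0.60 for FGF9. The remaining ones are in the closing section. The FGF2 term passed with the filter at the 60th percentile (adjusted p 0.044) and without pluripotent control shRNA replicate 2 (adjusted p 0.046).

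For the 8 members whose group means spanned at least 1 log2 unit, the tested genes with the most similar levels over the 16 arrays were found by Pearson correlation. The arrays fall into 6 groups, so these values mostly compare group means, and they are given as a description. FLRT3 was most like SOX5 (0.993), CDH2 (0.993) and PAX6 (0.993). FGF9 was most like DTX4 (0.979), CLVS1 (0.974) and CCDC30 (0.968), and FGF8 most like C1orf21 (0.940), MARCHF4 (0.929) and TMEM9 (0.927). FGF19 was most like DOCK5 (0.981), NR5A2 (0.972) and CRIM1 (0.968), and FGF13 most like FAM124A (0.977), CHAF1A (0.977) and VSIG10 (0.975). FGFR4 was most like PCOLCE (0.986), BRINP1 (0.985) and ZDHHC22 (0.984). FGFR2 was most like LUZP2 (0.958), GAP43 (0.954) and FBXO7 (0.952), and FGFR3 most like TRIM38 (0.916), PRODH (0.913) and POU2F3 (0.902). Among the members themselves FGF13, FGF19, FGFR4 and FGF2 correlated with each other at 0.78 to 0.92, and each of them with FLRT3 at -0.82 to -0.95. FGFR2 correlated at -0.76 with FGF8, and FGFR3 at 0.71 with FGFR1.

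**Figure D4:**
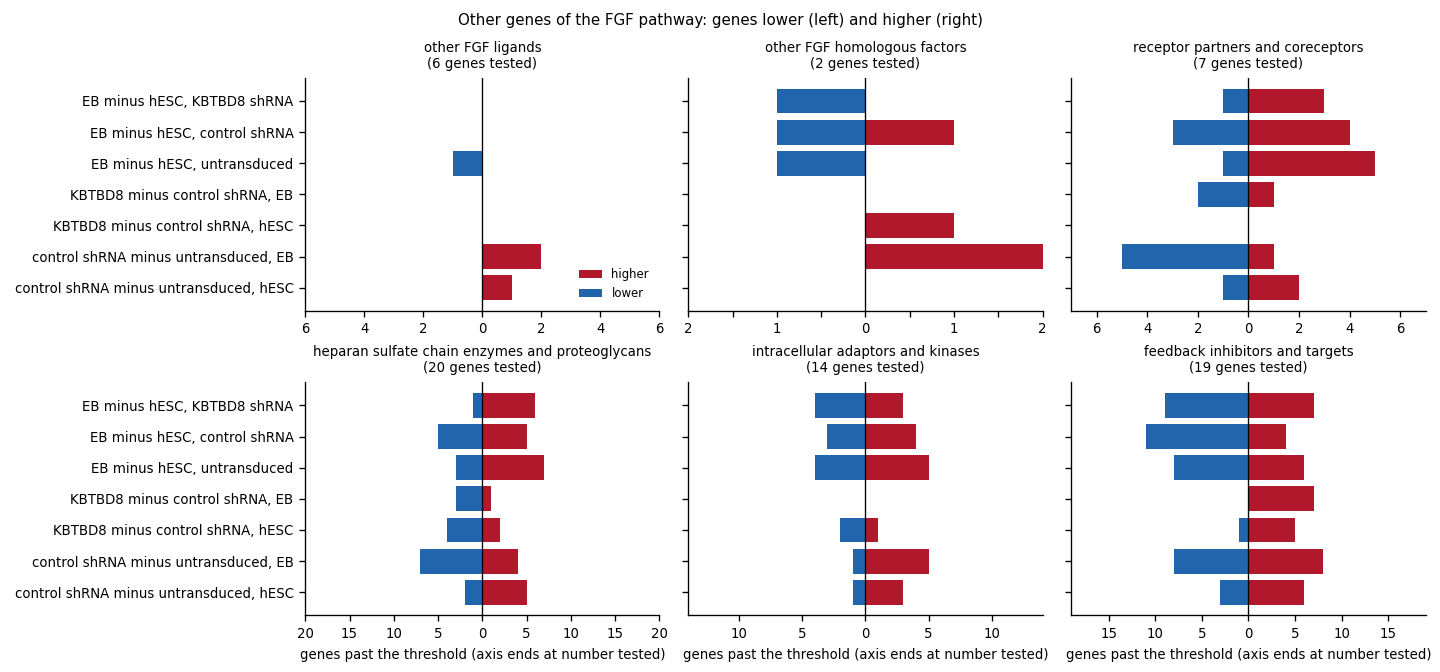
Number of other FGF pathway genes past an adjusted p of 0.05 (horizontal axis, lower to the left and higher to the right of 0) in each comparison (vertical axis), with a panel for each list and axes that end at the number tested. Among feedback genes 7 are higher and 0 lower with the KBTBD8 shRNA in embryoid bodies, while in embryoid bodies with the control shRNA 8 are higher and 8 lower than untransduced.

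The rest of the FGF pathway was described with 6 lists from general knowledge. Their counts are read against the shares of all genes that rose and fell, which were 17.4% and 21.1% for differentiation with the KBTBD8 shRNA, 23.2% and 25.3% with the control shRNA and 26% and 26.3% untransduced. Between the shRNAs they were 2.84% and 2.97% in embryoid bodies and 8.46% and 5.68% in pluripotent cells, and between the control shRNA and untransduced cells 24.5% and 20.3% in embryoid bodies and 16.9% and 12.1% in pluripotent cells. Of 14 other secreted ligands 6 passed the filter on dim genes, and FGF1, FGF3, FGF5, FGF6, FGF7, FGF10, FGF20 and FGF21 did not. Among the 6, none changed with differentiation in KBTBD8 or control shRNA cells, and FGF16 fell by 0.67 in untransduced cells. Relative to untransduced cells the control shRNA had higher FGF16 (0.97) and FGF4 (0.40) in embryoid bodies and higher FGF16 (0.47) in pluripotent cells, and no ligand of the list passed for the KBTBD8 shRNA. Of the other homologous factors FGF11 and FGF12 were tested. FGF12 fell with differentiation by 0.45 with the KBTBD8 shRNA, 0.37 with the control shRNA and 0.88 untransduced, and FGF11 rose by 0.91 with the control shRNA. FGF11 was also higher with the KBTBD8 shRNA in pluripotent cells (0.86), and against untransduced embryoid bodies the control shRNA gave higher levels of both (0.97 and 0.65).

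Of 7 tested partners of the receptors, 3 rose and 1 fell with differentiation under the KBTBD8 shRNA, 4 rose and 3 fell under the control shRNA, and 5 rose and 1 fell untransduced, with medians of 0.35, 0.46 and 0.81 where all genes had 0.00, -0.02 and -0.04. The widest were CDH2 (1.58), FLRT2 (1.01) and FGFBP3 (-0.57) with the KBTBD8 shRNA, CDH2 (1.87), NCAM1 (1.65) and IL17RD (-1.07) with the control shRNA, and CDH2 (2.65), FLRT2 (1.87) and NCAM1 (1.56) untransduced. CDH2 is N-cadherin and IL17RD is an inhibitor of FGF receptors. In embryoid bodies with the KBTBD8 shRNA, IL17RD was higher (1.37) and NCAM1 (-1.05) and CDH2 (-0.44) were lower than with the control shRNA. Against untransduced embryoid bodies the control shRNA had 1 partner higher and 5 lower, led by IL17RD (-1.51), the decoy receptor FGFRL1 (-1.50) and FLRT2 (-1.43). In pluripotent cells CDH2 (0.52) and IL17RD (0.37) were higher and FGFRL1 (-0.33) was lower, and no partner passed for the KBTBD8 shRNA.

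Among 20 genes of heparan sulfate chains and core proteins, 6 rose and 1 fell with differentiation under the KBTBD8 shRNA, 5 rose and 5 fell under the control shRNA, and 7 rose and 3 fell untransduced. With the control shRNA these counts are near the shares of all genes. The leading genes were GPC3 (2.33), GPC4 (-1.40) and HS6ST2 (1.12) with the KBTBD8 shRNA, GPC4 (-2.31), GPC3 (2.06) and SULF1 (1.84) with the control shRNA, and SULF1 (3.26), GPC4 (-1.93) and GPC3 (1.64) untransduced. GPC3 and GPC4 are glypican core proteins, and SULF1 removes sulfate groups from the chains. In embryoid bodies 1 was higher and 3 were lower with the KBTBD8 than with the control shRNA, with SULF1 at -1.57, GPC4 at 0.86 and SDC3 at -0.57, and in pluripotent cells 2 were higher and 4 lower, with HS6ST2 at 0.58, SULF2 at -0.50 and HS6ST3 at -0.48. Control shRNA embryoid bodies had 4 higher and 7 lower than untransduced ones, with HS6ST2 at -0.79, HS2ST1 at -0.76 and SULF1 at -0.67. In pluripotent cells 5 were higher and 2 lower, with SULF1 at 0.75, HS6ST2 at -0.70 and EXT1 at 0.67.

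Among 14 intracellular adaptors and kinases, 3 rose and 4 fell with differentiation under the KBTBD8 shRNA, 4 rose and 3 fell under the control shRNA, and 5 rose and 4 fell untransduced, all near the shares of all genes. SHC1 (-0.77), PLCG1 (0.70) and CBL (-0.56) led with the KBTBD8 shRNA, SOS2 (0.72), GAB1 (0.64) and SHC1 (-0.49) with the control shRNA, and SHC1 (-1.47), CBL (-0.91) and SOS2 (0.82) untransduced. Between the KBTBD8 and the control shRNA limma called none of them in embryoid bodies, and in pluripotent cells CBL (0.48), PLCG1 (-0.45) and HRAS (-0.33). Against untransduced cells the control shRNA had 5 higher and 1 lower in embryoid bodies, led by SHC1 (1.34), CBL (0.97) and SOS1 (-0.72), and 3 higher and 1 lower in pluripotent cells, led by SOS1 (-0.36), SHC1 (0.36) and PTPN11 (0.34).

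Feedback inhibitors and targets of the ERK cascade, 19 of them tested, had 7 higher and 9 lower in embryoid bodies with the KBTBD8 shRNA, 4 higher and 11 lower with the control shRNA, and 6 higher and 8 lower untransduced. SPRY4 (-2.27), EGR1 (1.58) and MYC (-1.49) led with the KBTBD8 shRNA, DUSP6 (-2.69), EGR1 (2.18) and ETV4 (-1.74) with the control shRNA, and IER3 (-2.48), DUSP6 (-2.09) and ETV4 (-2.04) untransduced. Of the 19, 7 were higher and none lower in KBTBD8 shRNA than control shRNA embryoid bodies, with a median of 0.25 where all genes had 0.00. They were led by ETV5 (1.94), DUSP6 (1.56) and SPRY1 (1.10). In pluripotent cells 5 were higher and 1 was lower, led by ETV5 (0.79), DUSP5 (-0.61) and SPRY4 (0.53). Between control shRNA and untransduced embryoid bodies 8 were higher and 8 lower, with a median of -0.01, and the widest differences were ETV5 (-2.32), SPRY2 (-1.63) and ETV1 (-1.39). In pluripotent cells EGR1 (-1.72), IER3 (-1.41) and DUSP5 (0.70) led 6 rises and 3 falls.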

How the data were processed

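The authors deposited 1 table of log2 intensities, and GCRMA, with no version, is the method in the submitters' processing notes. Its log base was taken from the method and the range of values, and whether all 18 arrays were normalized together is not given in the sources used here. RNA was labelled with NuGEN kits, per the labels. Of 33297 probe sets 19460 carried 1 gene symbol, brought to current names with RefSeq for GRCh38.p14, and the probe set with the highest mean stood for its gene. A gene was tested if at least 3 of the 16 arrays had it above their 40th percentile, which left 14142 genes and all 10 members. In R 4.3.3 limma 3.58.1 fitted a mean for each of 6 groups, with 10 residual degrees of freedom and Benjamini-Hochberg adjustment over all genes tested. After ± stands the standard error. Files were prepared with pandas 2.3.3 and figures drawn with matplotlib 3.10.9 in Python 3.11.15.

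The members, lists and alternatives were chosen with earlier results of these data known, so no list is independent of them. All members are named in every comparison. From each list the 3 widest changes past the threshold are named, and for each member whose group means span 1 or more the 3 most similar genes. The number of arrays limits the precision.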

Additional observations from a re-analysis of the deposited data

Results flagged for a closer look

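The change of 6 members with differentiation differed between control shRNA and untransduced cells by the interaction term, where 16.9% of all genes did. The log2 values were -2.96 for FGF9, 1.48 for FGFR2, 0.97 for FGFR3, -0.79 for FGF8, -0.64 for FGF13 and 0.40 for FGF2. FGF9 lay below the filter in every group of this term except untransduced embryoid bodies. Between the KBTBD8 and the control shRNA the change differed for FGF8 (1.67), FGFR2 (-0.69) and FGFR1 (0.56), where 9.88% of all genes did. FGF8 and FGFR2 stand in both sets, with opposite signs, and both interactions share the control shRNA arrays. Single values within groups of 3 or fewer arrays were not put to Dixon's test.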

How the results depend on the processing

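All 18 arrays under their labels changed most. The number of members called was then 5 of 10 for untransduced differentiation (10 on 16 arrays), 0 for KBTBD8 shRNA differentiation (9), 1 for the KBTBD8 shRNA in embryoid bodies (2), 0 for the control shRNA in pluripotent cells (4), 2 for the first interaction (6) and 1 for the second (3), where the first interaction sets the control shRNA against untransduced cells and the second the KBTBD8 against the control shRNA. Of 49 calls on members, 29 were lost. All genes called were 0 (5443), 352 (821), 1713 (4112), 744 (2391) and 521 (1397) in the last 5 of these, 729 (1999) for the KBTBD8 shRNA in pluripotent cells and 3850 (6346) for the control shRNA in embryoid bodies. Both added arrays enter the spread that all comparisons share. The standard error of untransduced differentiation went from 0.18 to 0.91 for FLRT3 and from 0.10 to 0.11 for FGFR2. The cause of the changed calls was not tested. With only the groups compared, the KBTBD8 shRNA called 0 members in pluripotent cells and 5 in embryoid bodies, and the control shRNA called 2644 genes in pluripotent cells. A filter at the 60th percentile kept all 10 members and called 2 members for the KBTBD8 shRNA in pluripotent cells. With 1 array left out, members called ranged from 8 to 10, 7 to 8 and 9 to 9 for differentiation (untransduced, control shRNA, KBTBD8 shRNA), 0 to 2 and 2 to 4 for the KBTBD8 shRNA (pluripotent, embryoid bodies), 3 to 6 and 4 to 7 for the control shRNA in the same order, and 5 to 7 and 1 to 4 for the interactions. In the same orders, all genes called ranged from 6593 to 7469, 6050 to 7089 and 4028 to 5678 for differentiation. The ranges were 720 to 2280 and 450 to 989 for the KBTBD8 shRNA. They were 3076 to 4082 and 4998 to 6696 for the control shRNA, and 1868 to 2819 and 731 to 1645 for the interactions. For the KBTBD8 shRNA in pluripotent cells the count of members was 0 without replicate 3 of either shRNA and 2 without untransduced replicate 1 or 2. In embryoid bodies it was 4 without pluripotent untransduced replicate 1, and the second interaction called 1 member without pluripotent KBTBD8 shRNA replicate 3. All genes called for the KBTBD8 shRNA were 1107 and 720 in pluripotent cells without its replicate 1 or 3, and in embryoid bodies 492 and 450 without its replicate 1 or 3 and 535 without control shRNA replicate 1. The second interaction called 870 genes without embryoid body KBTBD8 shRNA replicate 1 and 731 without pluripotent replicate 3.

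No member called on 16 arrays changed direction under any alternative run. Differences that did not pass turned sign on 18 arrays for the KBTBD8 shRNA in pluripotent cells (FGF2 -0.18, FGF8 0.12, FGF13 -0.31, FGF19 -0.31, FGFR2 -0.0078, FGFR3 0.22, FLRT3 1.15), in embryoid bodies (FGF2 0.076, FGF19 0.39) and in its interaction (FGF2 0.26, FGF19 0.70, FGFR3 -0.14). FGFR2 for the KBTBD8 shRNA in pluripotent cells also turned with a replicate block (-0.0085), which changed no call on a member other than FGF2 in control shRNA embryoid bodies. Deviations of same-numbered arrays from their group means correlated between -0.38 and 0.38. In groups this small the deviations depend on each other, so this does not settle whether replicate numbers pair the samples. FGFR1 turned with quantile normalization in pluripotent (0.012) and with centring in embryoid bodies (-0.034) for the control shRNA, and FGF13 with centring in the second interaction (-0.0087). With 1 array left out, signs turned for FGFR2 in KBTBD8 shRNA differentiation (-0.11 to 0.25), for the KBTBD8 shRNA in pluripotent cells (FGFR2 -0.17 to 0.20, FGFR3 -0.24 to 0.034, FLRT3 -0.28 to 0.11), for the control shRNA there (FGF9 -0.24 to 0.066, FGFR1 -0.15 to 0.058) and for FGF13 in the second interaction (-0.059 to 0.065). Centring moved the median of all genes for the control shRNA in embryoid bodies to -0.14, against 0.03. Where they are low, FGF8 lies near the filter, and FGF19 and FLRT3 lie around or below it. FGF9 lies below it in pluripotent cells, down to the 19.6 percentile of the array.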
